A study of Mus musculus with 8 samples.

Results

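Lysosomal gene expression was examined in sorted cortical astrocytes of mice with and without floxed alleles for the conditional deletion of Ptch1, the receptor that holds Hedgehog signalling off until a Hedgehog ligand binds. The set held 47 genes chosen by symbol from the deposited counts: 10 proteases, 5 glycosidases of glycogen and glycoproteins, 6 enzymes of glycosaminoglycan degradation, 9 hydrolases of sphingolipids and other lipids, 4 cofactors and soluble luminal proteins, 6 membrane proteins, 6 subunits of the proton pump (V-ATPase) and the transcription factor gene Tfeb. Each of the 47 had a row among 24047 gene rows, and 44 were among the 10954 genes that passed the filter on low counts and were tested. The genes were put together with results of this same genotype comparison known, so the genotype differences below describe them and support nothing.

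Both groups carried Glast-CreERT2, a tamoxifen-inducible Cre recombinase expressed from the promoter of the astrocyte glutamate transporter, and Ai14, a reporter that makes tdTomato after recombination. The 4 WT libraries had no floxed Ptch1 allele listed, whereas the 4 Ptch1cKO libraries came from mice that were also Ptch1fl/fl. All mice received tamoxifen, between postnatal days 12 and 14, and tissue of the somatosensory cortex was taken at postnatal days 23 to 25. The tdTomato-positive cells were sorted, and RNA-seq libraries were made from amplified cDNA by exome capture. A cell of any type in which the Glast promoter was active at the time of tamoxifen can carry the reporter. The labels leave unsaid whether 1 mouse gave 1 library, and the p-values below therefore refer to the spread among libraries, which may be technical.

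Lysosomes are acidic organelles that break down proteins, glycans, lipids and nucleic acids delivered by endocytosis, phagocytosis and autophagy. The V-ATPase pumps protons into the lumen, the hydrolases work at that low pH, and the membrane proteins protect the bilayer and export products and ions. In the brain, loss of single lysosomal enzymes or of their cofactors causes storage diseases with neurodegeneration, and microglia, the resident macrophages, are rich in lysosomal proteases.

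The libraries held between 4061274 and 7206462 gene counts. Of the 10954 tested genes, 11 passed an adjusted p of 0.05 between genotypes (edgeR quasi-likelihood test, Benjamini-Hochberg adjustment), 9 of them higher in Ptch1cKO (0.0822%) and 2 lower (0.0183%). Levels are given as CPM, read counts scaled to a common library size, and values listed for a group follow the order of replicates 1 to 4. Ptch1 itself stood at 285, 227, 491 and 425 CPM in WT and at 219, 249, 168 and 258 CPM in Ptch1cKO. Ptch1cKO replicates 2 and 4 lay above WT replicate 2, so the groups overlapped. The log2 fold change of -0.67 (SE 0.22) had an adjusted p of 0.349 in the edgeR test. It was -0.37 without WT replicate 3 and Ptch1cKO replicate 3, and with no filter on low counts the adjusted p was 0.00235. The count covers the whole gene, the floxed and the remaining exons alike. The 14 astrocyte markers summed to 24673 to 36261 CPM in WT and 19529 to 39418 CPM in Ptch1cKO libraries. Much of that sum was Slc1a2, with a mean of 18620 of 31350 CPM in WT and 15926 of 29026 CPM in Ptch1cKO. None of the marker genes tested for other cell types was at 0 in all libraries: the summed level was 13807 to 26692 and 17546 to 23201 CPM for the oligodendrocyte lineage, 12970 to 14697 and 12032 to 15390 CPM for neurons, and 299.7 to 559 and 376 to 828 CPM for microglia, WT and Ptch1cKO in that order. Endothelial and pericyte markers summed to at most 23.3 and 38.6 CPM. WT replicates 2 and 3 had 1148 and 612 counts of Xist and no count of the Y-linked Ddx3y, while the other 6 libraries had fewer than 10 Xist counts, so both sexes were present among WT libraries only.

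Compared per transcript length, by the authors' TPM (transcript abundance scaled for length and depth), the lysosomal genes spanned a wide range of levels. How well amplification and exome capture recovered each gene was not measured, so the ranks between genes hold for these libraries only. Over all 8 libraries the highest mean TPM was that of Lamp1 at 234, followed by Ctsd at 205, Ids at 182, Atp6v1b2 at 128, Ppt1 at 126 and Ctsa at 126. Lamp1 encodes an abundant glycoprotein of the lysosomal membrane, Ctsd the main aspartic protease and Ids the sulfatase that is missing in Hunter syndrome. In WT the mean TPM was 218 ± 29.3 (SD, n = 4) for Lamp1, 195 ± 41.6 for Ids and 159 ± 21.1 for Ctsd, and in Ptch1cKO it was 249 ± 52.5, 170 ± 18.1 and 252 ± 55.9, so the neighbours Lamp1 and Ctsd in Ptch1cKO, and Lamp1 and Ids in WT, lay within 1 SD of each other. In all, 10 of the 47 genes averaged 100 TPM or more and 11 averaged under 5 TPM, with a median of 24.8 TPM.

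TFEB, the transcription factor regarded as the main activator of lysosomal genes and a member of the set, binds an E-box with the core CACGTG. RefSeq promoters of 300 bases, from 250 bases before the start site to 50 after it on GRCm38.p6 (mm10), were matched for 42 of the 47 genes. CACGTG was found in 16 of the 42 genes (38.1%), against 8.09% of the 27025 genes in the promoter table and 11.8% of the 8315 matched genes that were tested here. The longer form TCACGTGA, which contains the hexamer, was found in 7 of the 42 genes (16.7%) against 1.12% of all genes in the table and 2.24% of the matched genes that were tested. Both motifs read the same on both strands. By role, 5 of 8 matched proteases, 3 of 5 membrane proteins and none of 4 cofactors held the hexamer. The stretches below show the motif, in capitals, in Ctsd, Ctsa and Ctsl, whose groups did not overlap, in Lgmn, whose covariation with microglial markers is given further on, and in the 3 genes of membrane proteins that held it, among them Lamp1 with 4 copies. Ctsb, the fourth gene whose groups did not overlap, was not matched. The stretches are read 5′ to 3′ on the strand of the gene, with distances counted from the RefSeq start site. The GENCODE gene bounds given elsewhere in the text begin earlier for all of these genes but Lamp1. By those bounds the stretches of the other genes lie inside the gene.
Ctsd, chr7:142387908-142387937, minus strand, motif beginning 98 bases before the start: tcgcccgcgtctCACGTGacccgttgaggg
Ctsa, chr2:164833749-164833772, plus strand, 12 bases before: tgagcaaactgtCACGTGatgcag
Lgmn, chr12:102439124-102439153, minus strand, 49 bases before: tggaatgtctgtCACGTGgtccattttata
Ctsl, chr13:64370739-64370768, minus strand, 236 bases before: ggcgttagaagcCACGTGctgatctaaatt
Cln3, chr7:126583340-126583369, minus strand, 121 bases before: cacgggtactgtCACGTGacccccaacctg
Mcoln1, chr8:3500462-3500491, plus strand, 45 bases before: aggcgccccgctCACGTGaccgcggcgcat
Lamp1, chr8:13159095-13159156, plus strand, 4 copies in 62 bases: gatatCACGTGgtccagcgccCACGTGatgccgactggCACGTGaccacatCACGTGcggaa
A match describes the letters in this window and does not show that a factor binds there.

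Of the 44 tested genes, 33 had a positive log2 fold change (Ptch1cKO over WT), against 49.6% of all tested genes, and their median was 0.25 against -0.00 over all tested genes. None passed an adjusted p of 0.05 in the edgeR test, while 11, each with a higher mean in Ptch1cKO, had an unadjusted p under 0.05 (against 9.34% of all tested genes). DESeq2 called 3 (Ctsa, Ctsb and Ctsd), and limma on log2(TPM + 1) called none (0.681% and 0.0183% of all genes with an adjusted p in these fits). In 4 genes every Ptch1cKO library lay above every WT library (9.09%, against 2.52% of all tested genes), and in none below (2.50% of all tested genes). The summed level of the 47 genes was 2170, 2261, 2371 and 2441 CPM in the WT libraries and 2717, 2801, 2784 and 2758 CPM in the Ptch1cKO libraries. Sums, here and below, follow their highest genes. How often sums of other genes keep the groups apart was not measured.

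**Figure D1:**
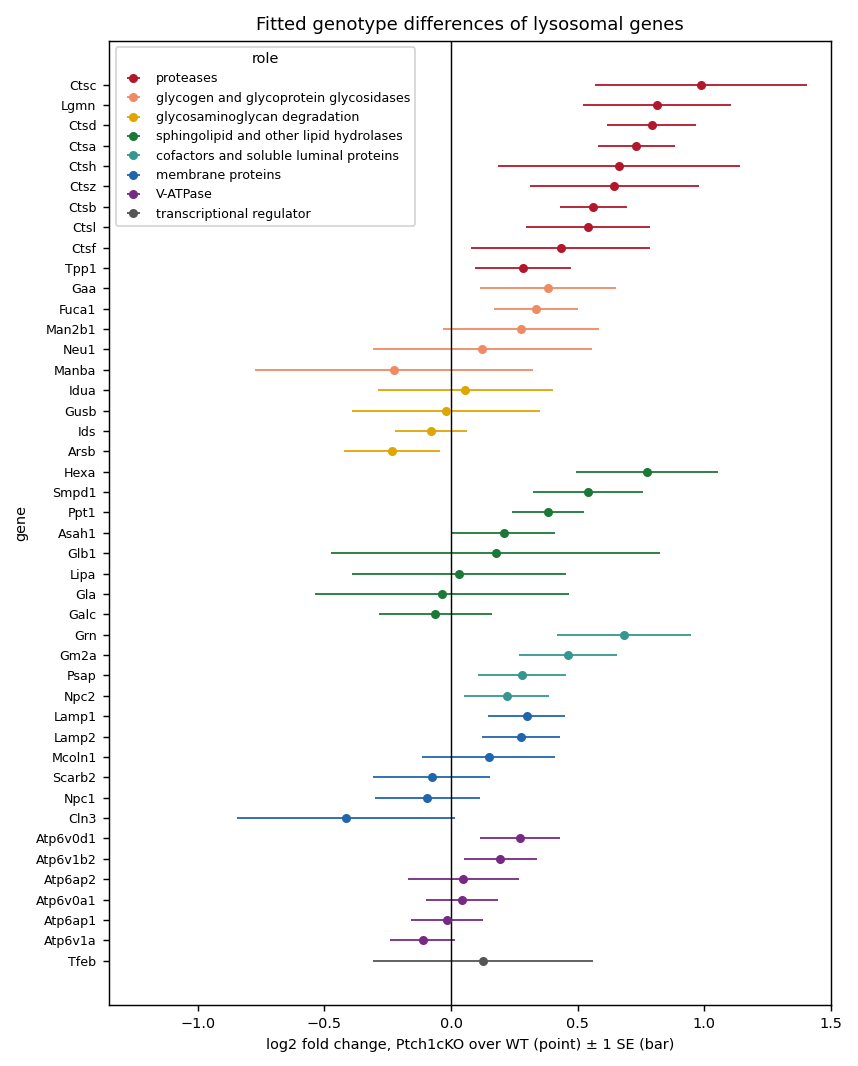
Points give the fitted log2 fold change of each of the 44 tested genes, Ptch1cKO over WT, and bars 1 SE, with genes grouped by role in colour and the line at 0 marking equal levels. All 10 proteases and 4 cofactors lie to the right of 0, while the glycosaminoglycan enzymes, membrane proteins and V-ATPase subunits lie on both sides.

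The proteases had the highest median fold change of any role. Each of the 10 had a positive log2 fold change, from 0.28 to 0.99 with a median of 0.65, and 6 had an unadjusted p under 0.05. The summed protease level was 421, 476, 447 and 436 CPM in the WT libraries and 687, 595, 819 and 680 CPM in the Ptch1cKO libraries. The lowest Ptch1cKO library, replicate 2, was still above the highest WT library, and the highest was Ptch1cKO replicate 3. Outside the proteases, 23 of 34 tested genes had a positive log2 fold change, with a median of 0.14.

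Ctsa (chromosome 2, 164832873 to 164841032, plus strand) encodes cathepsin A, a serine carboxypeptidase that also protects beta-galactosidase and neuraminidase from degradation. Its level was 123, 161, 114 and 123 CPM in the WT libraries and 233, 177, 253 and 201 CPM in the Ptch1cKO libraries. The groups did not overlap, with WT replicate 2 the nearest to the Ptch1cKO libraries. The means were 130 ± 21.1 and 216 ± 33.6 CPM (SD, n = 4 each), and the log2 fold change was 0.73 (SE 0.15) with an adjusted p of 0.103 in the edgeR test and 0.00619 in DESeq2.

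Ctsd (chromosome 7, 142375911 to 142388038, minus strand) encodes cathepsin D, the aspartic protease whose loss causes a congenital form of neuronal ceroid lipofuscinosis. Its level was 117, 115, 89.6 and 118 CPM in the WT libraries and 169.9, 146, 265 and 182 CPM in the Ptch1cKO libraries. The libraries at both ends of the scale, WT replicate 3 and Ptch1cKO replicate 3, were also those with the lowest and highest microglial marker levels. The log2 fold change was 0.79 (SE 0.18) with an adjusted p of 0.126 in the edgeR test and 0.0130 in DESeq2. It was 0.51 without those 2 libraries, which left 115 to 118 against 146 to 182 CPM. The groups did not overlap with all libraries, so leaving out the outermost 2 could not make them overlap.

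Ctsb (chromosome 14, 63122462 to 63145923, plus strand) encodes cathepsin B, a cysteine protease that cuts within chains and trims dipeptides from their ends. Its level was 72.0, 75.0, 86.8 and 79.9 CPM in the WT libraries and 111, 118, 114 and 121 CPM in the Ptch1cKO libraries. No Ptch1cKO library came near the highest WT library, replicate 3, and the 4 Ptch1cKO values had the smallest spread of any of the genes with a mean of 10 CPM or more, with a coefficient of variation of 3.90%. The log2 fold change was 0.56 (SE 0.13) with an adjusted p of 0.173 in the edgeR test and 0.00619 in DESeq2. Its exons overlap those of Fdft1 on the opposite strand, which averaged 45.5 ± 8.90 CPM over WT and 47.8 ± 10.8 CPM over Ptch1cKO libraries (SD, n = 4 each).

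Ctsl (chromosome 13, 64359337 to 64370890, minus strand) encodes cathepsin L, a cysteine endopeptidase, and was the gene nearest to overlap among these 4. Its level was 14.1, 9.43, 18.6 and 20.4 CPM in the WT libraries and 23.01, 24.8, 20.9 and 22.0 CPM in the Ptch1cKO libraries. The gap between WT replicate 4 and Ptch1cKO replicate 3 was small, and in the authors' TPM the groups overlapped. The log2 fold change was 0.54 (SE 0.25) with an adjusted p of 0.515 in the edgeR test.

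**Figure D2:**
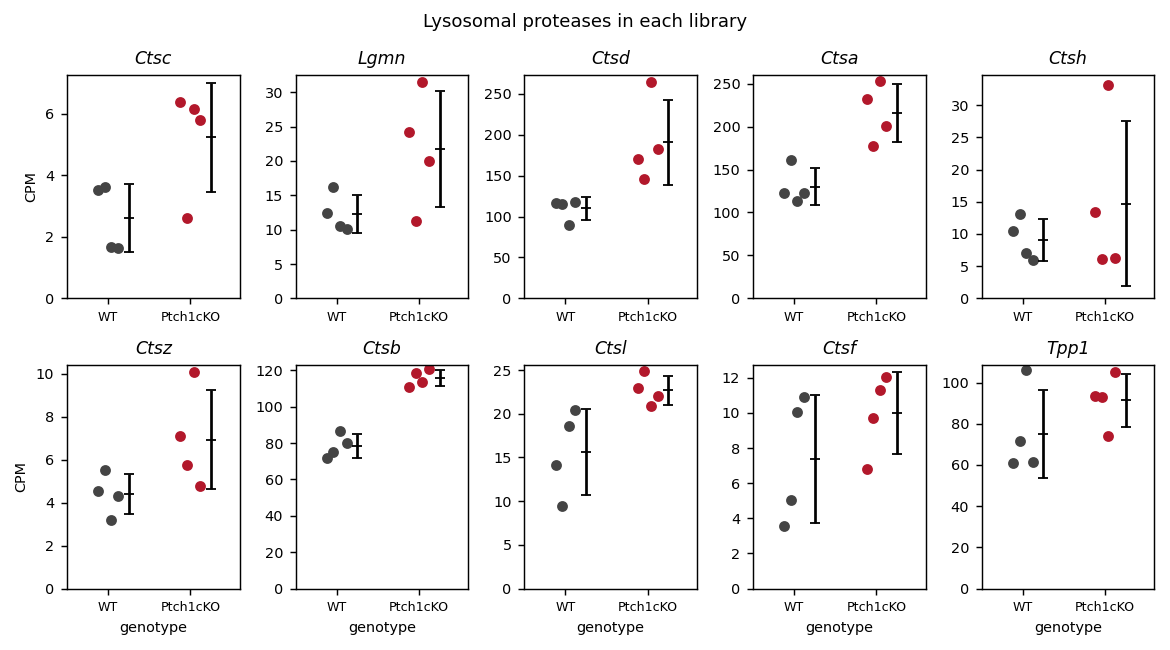
Each panel shows 1 protease, with a point for the CPM of each library (4 WT, 4 Ptch1cKO), and the group mean (tick) with the SD (bar) beside the points; the vertical axes start at 0 and differ between panels. The Ptch1cKO points of Ctsa, Ctsb, Ctsd and Ctsl all lie above the WT points, while those of the other 6 proteases overlap with them.

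The other 6 proteases overlapped between groups. Ctsc, which encodes dipeptidyl peptidase 1, the activator of granule serine proteases of immune cells, had the highest log2 fold change of the set at 0.99 (SE 0.42, adjusted p 0.482 in the edgeR test) at a low level. It stood at 3.53, 3.61, 1.68 and 1.65 CPM in the WT libraries and at 6.39, 2.61, 6.15 and 5.78 CPM in the Ptch1cKO libraries. Ptch1cKO replicate 2 lay below the WT replicates 1 and 2, and the other 3 Ptch1cKO libraries lay above all WT libraries. Tpp1, the tripeptidyl peptidase missing in late-infantile neuronal ceroid lipofuscinosis, had the lowest of the protease fold changes, 0.28 (SE 0.19). It stood at 61.1, 71.8, 106 and 61.6 CPM in WT and at 93.3, 93.0, 74.3 and 105 CPM in Ptch1cKO, so its highest WT library, replicate 3, exceeded every Ptch1cKO library, and without it the log2 fold change was 0.50. The log2 fold changes of Lgmn, Ctsh, Ctsz and Ctsf lay between 0.43 and 0.81, and that of Ctsh, an aminopeptidase, rested on 1 library: it stood at 33.2 CPM in Ptch1cKO replicate 3 and at 6.08 to 13.3 CPM in the other 3, and its log2 fold change was -0.08 without replicate 3.

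Among the glycosidases of glycogen and glycoproteins, 4 of 5 had a positive log2 fold change, between -0.22 and 0.38 with a median of 0.27. Gaa, which digests glycogen and is lost in Pompe disease, stood at 10.4, 14.5, 19.7 and 9.06 CPM in the WT libraries and at 16.05, 19.5, 14.02 and 20.7 CPM in the Ptch1cKO libraries. WT replicate 3 was higher than 3 of the Ptch1cKO libraries, and the log2 fold change of 0.38 (SE 0.27) was 0.72 without WT replicate 3 and Ptch1cKO replicate 3. Manba, the beta-mannosidase that takes apart N-linked glycans, was at the other end with a log2 fold change of -0.22 (SE 0.55), at 0.943 to 3.71 CPM in WT and 0.994 to 2.95 CPM in Ptch1cKO libraries. Neither gene had groups apart from each other.

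The enzymes that degrade glycosaminoglycans, the long sugar chains of proteoglycans, did not share the positive differences of the proteases. Of the 4 tested, 1 had a positive log2 fold change, and the median was -0.05, from -0.23 to 0.06. Ids, which removes sulfate from heparan and dermatan sulfate, stood at 276, 327, 363 and 433 CPM in the WT libraries and at 305, 374, 330 and 316 CPM in the Ptch1cKO libraries. Every Ptch1cKO value fell inside the WT range, and the log2 fold change was -0.08 (SE 0.14). Arsb, which removes sulfate from dermatan and chondroitin sulfate, had the lowest log2 fold change, -0.23 (SE 0.19), at 28.5 to 43.5 CPM in WT and 28.8 to 35.7 CPM in Ptch1cKO libraries. Idua, which acts after Ids, had the highest, 0.06 (SE 0.35), at 2.99 to 5.15 and 3.47 to 5.41 CPM.

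The 3 genes that did not pass the filter have related roles: Naglu and Sgsh degrade heparan sulfate and are lost in forms of Sanfilippo syndrome, and Arsa degrades sulfatide, a myelin lipid. Naglu had 2, 0, 7 and 0 WT counts against 8, 6, 3 and 4 Ptch1cKO counts. Sgsh had 6, 10, 3 and 2 WT counts against 10, 5, 11 and 12 Ptch1cKO counts. Arsa had 2, 1, 11 and 2 WT counts against 14, 13, 2 and 4 Ptch1cKO counts. At these counts no difference was tested.

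Exons of 11 of the 47 genes overlap those of a counted gene on the opposite strand, and whether counting used strand was not given in the sources used here. Without strand, reads from the exon bases shared by such pairs cannot be told apart, and the length shared was not measured. Beside Ctsb these include Ppt1 with Cap1, which stood at 103 ± 17.8 CPM over WT and 103 ± 10.9 CPM over Ptch1cKO libraries (SD, n = 4 each), near the level of Ppt1 itself. Ctsa overlaps Pltp, at 2.26 ± 0.397 and 3.34 ± 0.694 CPM (SD, n = 4 each), Lamp1 overlaps Grtp1, at 2.41 ± 1.09 and 3.42 ± 0.814 CPM, and Cln3 overlaps Apobr, at 1.69 ± 0.935 and 1.31 ± 0.692 CPM. Hexa and Grn overlap Tmem202 and Fam171a2, whose counts were too low to be tested.

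The lipid hydrolases divided within the group, although their summed level did not overlap between genotypes (181 to 204 CPM in WT, 242 to 264 CPM in Ptch1cKO). Each of the 8 tested genes overlapped between groups. Ppt1 alone averaged 102 CPM of the mean WT sum of 195 CPM. Of 8 tested, 6 had a positive log2 fold change, with a median of 0.19 and a range of -0.06 to 0.77, and 3 (Hexa, Smpd1 and Ppt1) had an unadjusted p under 0.05. Hexa (chromosome 9, 59539540 to 59565109, plus strand), the alpha subunit of the hexosaminidase that degrades the ganglioside GM2 and is lost in Tay-Sachs disease, stood at 18.3, 20.6, 14.4 and 15.6 CPM in the WT libraries and at 32.2, 14.4, 43.8 and 28.1 CPM in the Ptch1cKO libraries. Ptch1cKO replicate 2 lay at the level of the lowest WT library and the other 3 above all WT libraries. The log2 fold change was 0.77 (SE 0.28, adjusted p 0.412 in the edgeR test), and 0.45 without WT replicate 3 and Ptch1cKO replicate 3.

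Ppt1, which removes palmitate from proteins and is lost in infantile neuronal ceroid lipofuscinosis, was at 112, 94.0, 98.4 and 104 CPM in WT and 139, 156, 112 and 124 CPM in the Ptch1cKO libraries. The groups met only at WT replicate 1 and Ptch1cKO replicate 3, with a log2 fold change of 0.38 (SE 0.14, adjusted p 0.421 in the edgeR test). Galc, the galactosylceramidase of myelin turnover that is lost in Krabbe disease, had the lowest log2 fold change of the group, -0.06 (SE 0.22), at 18.3 to 24.9 CPM in WT and 16.2 to 26.2 CPM in Ptch1cKO. Gla, the X-linked galactosidase lost in Fabry disease, was at 0.786 to 2.69 and 1.04 to 3.27 CPM. Glb1, the beta-galactosidase, ranged within WT from 0.280 CPM in replicate 3 to 11.4 CPM in replicate 1, and its exons overlap those of Tmppe on the same strand.

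The 4 cofactors and soluble luminal proteins each had a positive log2 fold change, from 0.22 to 0.68 with a median of 0.37. Their summed level was 173 to 209 CPM in WT and 244 to 268 CPM in Ptch1cKO libraries, so the sums did not overlap, although each of the 4 genes did. Grn (chromosome 11, 102430315 to 102437048, plus strand) encodes progranulin, a secreted and lysosomal protein that is cut into granulins and whose partial loss causes frontotemporal dementia. It stood at 28.6, 37.9, 26.0 and 35.6 CPM in the WT libraries and at 62.3, 28.5, 75.5 and 39.8 CPM in the Ptch1cKO libraries. Replicates 1 and 3 of Ptch1cKO were far above WT, replicate 2 lay among the WT libraries, and the log2 fold change was 0.68 (SE 0.26, adjusted p 0.442 in the edgeR test), or 0.36 without WT replicate 3 and Ptch1cKO replicate 3. Npc2, the soluble carrier that hands cholesterol to the membrane protein NPC1, had the lowest log2 fold change, 0.22 (SE 0.17), at 36.0, 32.8, 31.0 and 37.9 CPM in WT and 43.5, 36.5, 41.8 and 38.5 CPM in Ptch1cKO. The overlap of Npc2 came from Ptch1cKO replicate 2 alone, which lay below WT replicate 4.

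Of the 6 membrane proteins, 3 had a positive log2 fold change, with a median of 0.04 and a range of -0.41 to 0.30. Lamp1 (chromosome 8, 13159161 to 13175338, plus strand) stood at 153, 178, 207 and 163 CPM in the WT libraries and at 214, 237, 163 and 249 CPM in the Ptch1cKO libraries. Ptch1cKO replicate 3, the library with the highest protease sum, was at the low end for Lamp1 and the other 3 were above all WT libraries, with a log2 fold change of 0.30 (SE 0.15, adjusted p 0.576 in the edgeR test), or 0.50 without that library and WT replicate 3. Lamp2, an X-linked membrane glycoprotein needed for the fusion of autophagosomes with lysosomes, stood at 69.0, 67.6, 90.9 and 68.3 CPM in WT and at 80.0, 92.8, 84.1 and 101 CPM in Ptch1cKO. It overlapped only through WT replicate 3, and its log2 fold change was 0.28 (SE 0.16). Cln3, the membrane protein lost in juvenile neuronal ceroid lipofuscinosis, had the lowest log2 fold change of all 44, -0.41 (SE 0.43), at 4.37, 4.87, 2.10 and 1.85 CPM in WT and 3.12, 2.09, 1.97 and 2.64 CPM in Ptch1cKO. WT replicates 1 and 2 of Cln3 lay above all Ptch1cKO libraries and WT replicate 4 below them.

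The V-ATPase has a cytosolic V1 sector that hydrolyses ATP and a membrane V0 sector that carries protons. Its 6 genes had log2 fold changes between -0.11 and 0.27 with a median of 0.05, and 4 of them were positive. Atp6v0d1, a V0 subunit that links the sectors, had the highest, 0.27 (SE 0.16), at 57.2, 64.3, 62.5 and 49.6 CPM in the WT libraries and 59.1, 74.2, 79.9 and 69.6 CPM in the Ptch1cKO libraries. Atp6v1a, the catalytic subunit of V1, had the lowest, -0.11 (SE 0.13), at 136, 160.3, 157 and 178 CPM in WT and 155, 151, 142 and 136 CPM in Ptch1cKO. All 4 Ptch1cKO values of Atp6v1a lay inside the WT range, and only Ptch1cKO replicate 1 of Atp6v0d1 did.

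Atp6v1b2, the regulatory B subunit of V1 in brain, stood at 107 to 149 CPM in WT and 126 to 157 CPM in Ptch1cKO, with a log2 fold change of 0.19 (SE 0.14). The accessory proteins Atp6ap1 and Atp6ap2, both X-linked, stood at 86.7 to 108 and 18.9 to 35.4 CPM in WT and at 83.9 to 108 and 24.3 to 33.9 CPM in Ptch1cKO. Ptch1cKO replicate 3 of Atp6ap1 lay below its WT range, and the Ptch1cKO values of Atp6ap2 lay inside it. The summed level of the 6 pump genes was 595, 578, 606 and 649.7 CPM in the WT libraries and 600.5, 668, 619 and 629 CPM in Ptch1cKO, so the groups overlapped, as did the sums of the membrane proteins, at 312 to 400.2 CPM in WT and 316 to 440.1 CPM in Ptch1cKO.

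**Figure D3:**
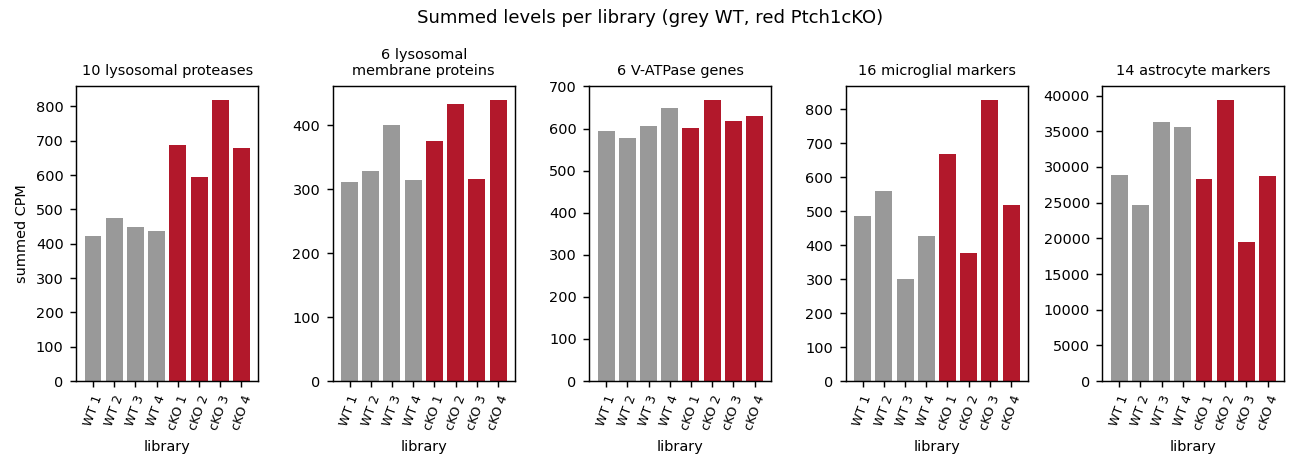
Bars give the summed CPM in each library (grey for WT, red for Ptch1cKO, shortened to cKO on the axis) of the 10 proteases, the 6 membrane proteins, the 6 V-ATPase genes, 16 microglial markers and 14 astrocyte markers, on vertical axes that start at 0. The protease sums of the 4 Ptch1cKO libraries, 595 to 819 CPM, lie above the WT sums of 421 to 476 CPM. The sums of the other 4 groups of genes shown overlap between genotypes. Those of the lipid hydrolases and of the cofactors, which are not shown, do not overlap, although every tested gene of either role does.

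Tfeb itself was at a low level in these libraries, 2.02, 3.14, 2.80 and 3.50 CPM in WT and 4.83, 1.56, 3.94 and 2.15 CPM in Ptch1cKO. The Ptch1cKO libraries lay on both sides of the WT libraries, with a log2 fold change of 0.13 (SE 0.43). An mRNA level does not report the activity of TFEB, which is set largely by phosphorylation and its place in the cell. The 13 tested genes with CACGTG in the promoter had a median log2 fold change of 0.30, with 10 positive, and the 26 without it had a median of 0.17, with 19 positive, a description for which no test was made. These sets also differed in role. The hexamer was held by 5 of 8 matched proteases, the role with the highest median fold change (0.65), against 16 of all 42 matched genes. The part of role in this contrast was not tested.

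**Figure D4:**
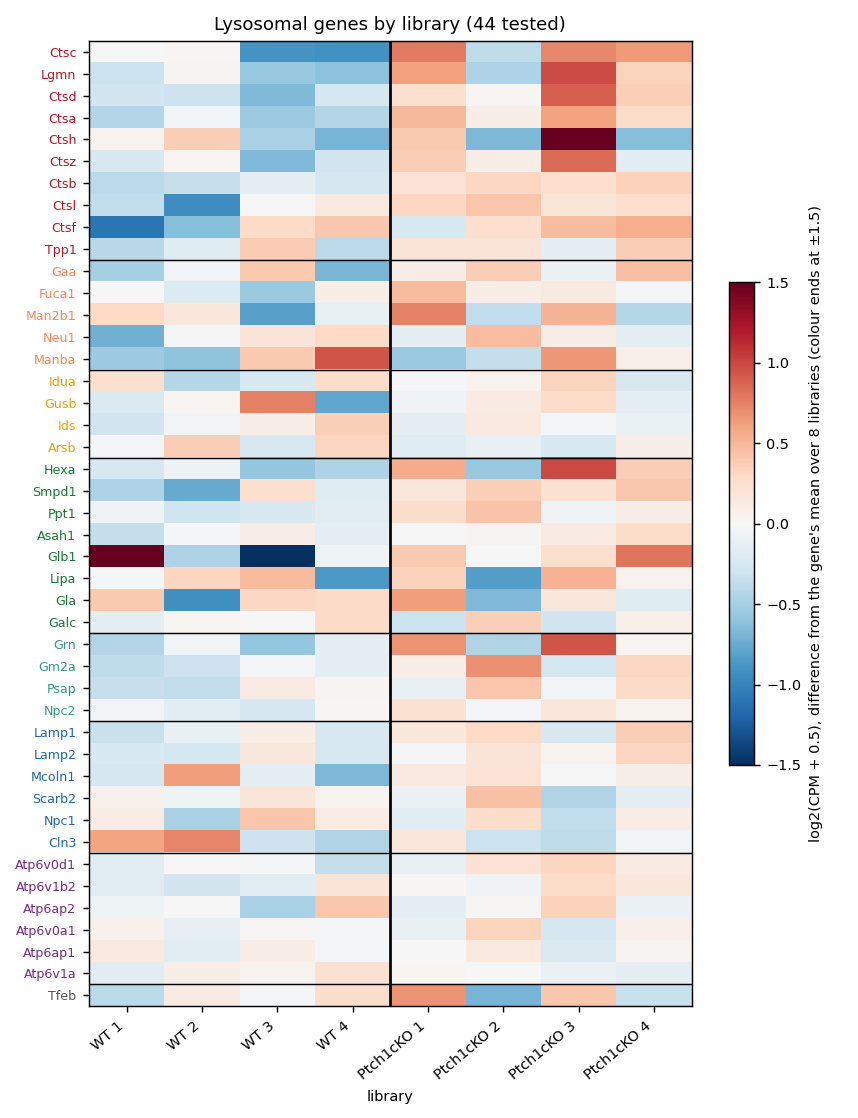
Each row is 1 of the 44 tested genes, ordered by role, and each column 1 library, and the colour gives log2(CPM + 0.5) minus the mean of that gene over the 8 libraries, with colours ending at 1.5 in either direction. The protease rows are mostly above their means in the 4 Ptch1cKO columns, while most rows of the V-ATPase and the glycosaminoglycan enzymes show no common direction.

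The rest of the lysosomal and autophagy pathway was described with 99 further genes in 6 lists, of which 92 were tested. None passed an adjusted p of 0.05 in the edgeR test and 9 had an unadjusted p under 0.05 (9.34% over all tested genes), 5 of them with a positive log2 fold change. DESeq2 called 1, Tpcn1 (0.681% over all genes with an adjusted p), and limma on the TPM called none. The log2 fold change was positive in 11 of 12 other hydrolases (median 0.18), 10 of 15 other membrane proteins and transporters (0.26), 7 of 11 other V-ATPase subunits (0.09), 10 of 16 genes for the delivery of enzymes to the lysosome (0.13), 9 of 18 genes of TFEB and mTORC1 control (-0.00) and 12 of 20 autophagy genes (0.02). Tpcn1, an endolysosomal cation channel, had the smallest p of the membrane list. It stood at 96.1, 69.8, 76.5 and 77.0 CPM in the WT libraries and at 130, 113, 102 and 143 CPM in the Ptch1cKO libraries. The groups did not overlap, and the log2 fold change was 0.61 (SE 0.16) with an adjusted p of 0.231 in the edgeR test and 0.0402 in DESeq2.

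The genes with the smallest p in 4 of the other lists all overlapped between groups. The log2 fold changes of the pump subunit gene Atp6v0e2 and of Gnptg, part of the enzyme that tags hydrolases with mannose 6-phosphate, were 0.42 (SE 0.17) and 0.52 (SE 0.21). Mtor, the kinase that keeps TFEB out of the nucleus, and Ulk1, the kinase that starts autophagy, had negative log2 fold changes of -0.38 (SE 0.16, or -0.22 without WT replicate 3 and Ptch1cKO replicate 3) and -0.41 (SE 0.17).

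All 16 microglial markers had a positive log2 fold change, with a median of 0.72, none passed an adjusted p of 0.05 in the edgeR test and 5 had an unadjusted p under 0.05. Their summed level was 486, 559, 299.7 and 426 CPM in the WT libraries and 669, 376, 828 and 518 CPM in the Ptch1cKO libraries, so the groups overlapped, with Ptch1cKO replicate 2 below 3 WT libraries. Among markers of the oligodendrocyte lineage 10 of 11 had a positive log2 fold change (median 0.41, 5 with an unadjusted p under 0.05), among astrocyte markers 11 of 14 (median 0.14, 2) and among neuronal markers 5 of 12 (median -0.02, 1), and none of these passed in the edgeR test. The part of these cell types in the genotype differences of the lysosomal genes was not tested. In bulk samples, fewer cells of a type and less RNA per cell cannot be told apart.

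The covariation of each gene with these markers was measured inside the genotypes, after subtraction of each genotype's mean, so that it does not use the genotype difference. Over all arrangements of libraries within genotypes the smallest two-sided exact permutation p is 0.00174, and no lysosomal gene passed an adjusted p of 0.05 over all genes (lowest 0.363). With that smallest p, an adjusted p under 0.05 over 10954 genes would need many genes tied at it. Not passing therefore says little about covariation. Pearson's r over the 8 libraries was above 0.8 in 8 of the 44 genes (18.2%, against 2.95% of all tested genes) and under -0.8 in 5 (11.4%, against 3.78%), with a median of -0.03 against -0.00. Without the 2 libraries farthest from the median marker level, Ptch1cKO replicate 3 and WT replicate 3, the counts were 4 (9.09%, against 6.48%) and 3 (6.82%, against 6.69%). The high counts therefore rested in part on those 2 libraries. The genes named in the following sentences were chosen after their values were seen, unless named above.

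The positive end held Grn at r = 0.94 (Spearman's rho 0.98, two-sided exact permutation p = 0.00174 and 0.00347, adjusted p for r 0.363), Hexa at 0.91 (rho 0.93, exact p = 0.00347 and 0.0104, adjusted 0.363) and Ctsd at 0.89 (rho 0.74, exact p = 0.0191 and 0.0625, adjusted 0.409). Without the 2 libraries r was 0.96 for Grn, 0.93 for Hexa and 0.72 for Ctsd. Lgmn, Ctsa, Man2b1, Ctsz and Ctsh followed with r between 0.80 and 0.87. The proteases did not share a sign: Ctsb had r = -0.63 (rho -0.60, exact p = 0.0660 and 0.146, adjusted 0.530) and Ctsl -0.41, although both were higher in every Ptch1cKO library than in every WT library.

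The negative end held Gm2a, the activator that lifts GM2 out of the membrane for digestion, at r = -0.93 (rho -0.83, exact p = 0.00868 and 0.0417, adjusted 0.363), Scarb2, a membrane receptor that delivers glucocerebrosidase, at -0.90 (rho -0.86, exact p = 0.0122 and 0.0139, adjusted 0.368), then the pump subunit gene Atp6v0a1 at -0.88, the cholesterol exporter gene Npc1 at -0.83 and Lamp1 at -0.81 (rho -0.69, exact p = 0.0486 and 0.101, adjusted 0.497). Without the 2 libraries r was -0.90 for Gm2a, -0.88 for Scarb2 and -0.30 for Lamp1. By role the median r was 0.77 for the 10 proteases, with 5 above 0.8, and -0.77 for the 6 membrane proteins. Without the 2 libraries these medians were 0.55, with 1 above 0.8, and -0.42. Astrocyte markers had a median r of -0.78, with 7 of 14 under -0.8, and without the 2 libraries -0.67, with 1 of 14.

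**Figure D5:**
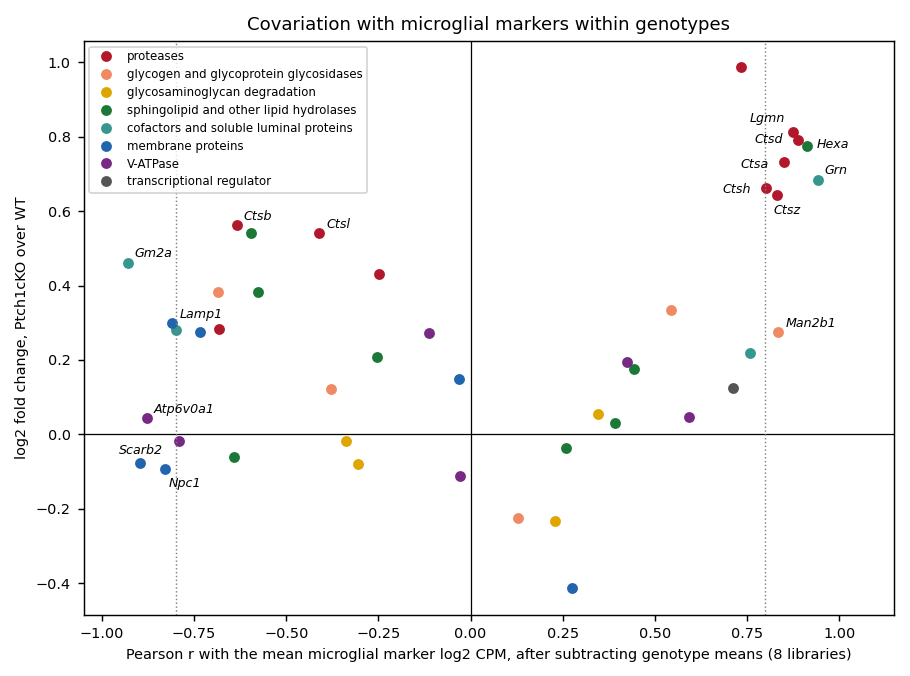
Each point is 1 of the 44 tested genes; the horizontal axis gives Pearson's r of its log2 CPM with the mean microglial marker level after subtraction of genotype means (8 libraries), the vertical axis the log2 fold change, Ptch1cKO over WT, and the dotted lines r of -0.8 and 0.8. Grn, Hexa and most named proteases sit at high r and high fold change, whereas Ctsb and Ctsl have positive fold changes at negative r.

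Spread among libraries of a genotype differed by gene more than by genotype. Among genes with a mean of 10 CPM or more, the median coefficient of variation was 16.1% over 31 genes in WT and 15.7% over 32 genes in Ptch1cKO. In WT it ran from 5.68% for Atp6v0a1 to 41.4% for Mcoln1, and in Ptch1cKO from 3.90% for Ctsb to 86.7% for Ctsh.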

How the data were processed

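RNA-seq was made from tdTomato-positive cells, 4 libraries per genotype. Per the submitters' processing notes, bcl2fastq 2.18, STAR 2.5 and mm10 were used; how reads were counted, and on which annotation and strand, was not given in the sources used here. Raw read counts per gene and a table of TPM per gene, scaled by transcript length and depth, were deposited by the authors. From the counts, edgeR 4.0.16 (R 4.3.3) was run on the genes kept by filterByExpr (minimum count 10) with TMM scaling and a robust quasi-likelihood fit of genotype, and p-values were Benjamini-Hochberg adjusted over all 10954 tested genes. The SE is the log2 fold change over the square root of the F statistic. Gene coordinates are from GENCODE and promoter start sites from RefSeq, both on GRCm38. Correlations used log2 CPM with a prior count of 2 and deviations from genotype means. All 12 pairs of libraries of a genotype differed beyond sampling noise. DESeq2 1.42.0 and limma 3.58.1 on log2(TPM + 1) and log2(TPM + 0.1), other scaling, no filter, a replicate block and left-out libraries were tried. The edgeR genotype test was checked on simulated data, whereas DESeq2, limma and the permutation test were not. The genes and lists were chosen with earlier results of these data known. Named genes were Ptch1, genes of the set whose groups did not overlap, the highest and lowest fold change per role, the 6 highest by TPM, X-linked and untested genes, Tfeb, and in the other lists called genes and the smallest p, of which 1 is not reported here. The column names carry prefixes nested in genotype whose meaning is not given, so genotype was not compared within them.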

Additional observations from a re-analysis of the deposited data

Results flagged for a closer look

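In 4 of 94 groups of 4 libraries, 1 library lay apart from the other 3 by Dixon's criterion (the gap to its nearest neighbour as a share of the range), and chance alone gives about 1 in 20. Ctsd in WT replicate 3 was at 89.6 CPM, against 115 to 118 CPM in the other 3. Ctsc in Ptch1cKO replicate 2 was at 2.61 CPM, against 5.78 to 6.39 CPM. Gla in WT replicate 2 was at 0.786 CPM, against 2.47 to 2.69 CPM. Lamp2 in WT replicate 3 was at 90.9 CPM, against 67.6 to 69.0 CPM.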

How the results depend on the processing

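Of the 47 lysosomal genes, edgeR called 0, DESeq2 called 3 and edgeR with no filter on low counts called 2 (Ctsa and Ctsd); the other alternatives called none. Over the alternatives the adjusted p ran from 0.000936 to 0.368 for Ctsa, from 0.00619 to 0.491 for Ctsb and from 0.000305 to 0.476 for Ctsd. Among the other lists, 1 gene (Tpcn1) was called by DESeq2 and 1 (Tpcn1) with no filter, against 0. Over all genes 11 were called, against 83 by DESeq2, 199 with no filter, 5 with a replicate block, 3 in the 6 libraries with under 10 Xist counts, 2 with each TPM pseudocount, 4 without WT replicate 3 and Ptch1cKO replicate 3 (chosen after seeing the data), and 1 to 19 when any 1 library was left out. The fit with no filter covered 20578 genes. The replicate block rests on numbers alone: same-numbered libraries' deviations correlated at 0.02, -0.17, -0.10 and -0.03. Genes with groups that did not overlap numbered 4, against 6 to 11 with any 1 library left out, 13 in the 6 libraries with under 10 Xist counts and 12 without WT replicate 3 and Ptch1cKO replicate 3. Fewer libraries make overlap less likely, and the share over all tested genes was taken only with no library left out. The larger counts are therefore no result about these genes. Positive fold changes numbered 33, and 28 to 36 in the alternatives. The r above 0.8 with the microglial level held for 8 genes, and for 4 without the 2 libraries. On the TPM scale with a pseudocount of 0.1 the median over all genes moved to -0.11 (log2), with 36.3% of genes positive, and the median over the lysosomal genes to 0.14. Of 527 alternative values of 33 named genes, 512 moved by less than 1 SE, and 32 changed sign, in 8 genes whose log2 fold change was at most 0.22 in size. Over all 44 tested lysosomal genes 18 changed sign in some alternative, the largest being Ctsh (0.66, and -0.08 without Ptch1cKO replicate 3); Man2b1 went from 0.27 (log2) to -0.03 without WT replicate 3 and Ptch1cKO replicate 3. Depth limits the genes of low count: 3 could not be tested.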

Other observations

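Atp6v0c, the proteolipid that forms most of the proton-carrying ring of the V-ATPase, had 1, 2, 0 and 0 WT counts against 0, 0, 0 and 1 Ptch1cKO counts, while the related ring subunit gene Atp6v0b had 101 to 226 counts per library. The cause was not tested.

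Lamtor5 and Rheb, which help hold and activate mTORC1 at the lysosome, were named after their values were seen. Rheb stood at 119, 107, 113 and 112 CPM in the WT libraries and at 99.4, 90.7, 81.9 and 89.6 CPM in the Ptch1cKO libraries, with a log2 fold change of -0.32 (SE 0.13, adjusted p 0.473 in the edgeR test). Lamtor5 stood at 33.5 to 44.7 CPM in WT and 21.9 to 31.5 CPM in Ptch1cKO, with a log2 fold change of -0.45 (SE 0.19, adjusted p 0.477 in the edgeR test). In both genes every Ptch1cKO library lay below every WT library (2.50% of all tested genes). Rraga, a GTPase gene of the same list, had every Ptch1cKO library above every WT library, at 44.8 to 49.0 against 29.9 to 44.7 CPM (log2 fold change 0.29, SE 0.17), and 9 of the 18 genes of the list had a positive log2 fold change.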
